A study of Mus musculus with 7 samples.

Results

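Clustered histone genes were taken as the genes of the deposited table whose symbol begins with Hist1h, Hist2h, Hist3h or Hist4h, and 67 of 24341 genes met this rule. The 67 genes comprised 6 genes for the linker histone H1, 18 for H2A, 18 for H2B, 12 for H3 and 13 for H4. On the mm10 (GRCm38) assembly, 53 of them lay in the Hist1 cluster on chromosome 13, 10 in the Hist2 cluster on chromosome 3, 3 in the Hist3 cluster on chromosome 11 and 1, Hist4h4, on chromosome 6. By the labels, B-cell precursor (BCP) cells of both groups had been sorted by flow cytometry from the spleen. The study's methods describe a sort by the surface markers B220, CD43 and BP-1 for preleukemic cells, and for cultured leukemic cells they mostly describe none. All mice were Emu-Ret hemizygotes on a BALB/c background, with no treatment named in the labels. The Emu-Ret transgene is a Ret fusion oncogene under the enhancer of the immunoglobulin heavy chain locus, which drives B-lineage leukemia in mice. Both groups carried the transgene, and no sample without it was analysed here. The leukemic group held 3 samples from moribund, older mice with overt disease. The preleukemic group held 4 samples from young, healthy mice whose disease state was preleukemia. The age of each mouse and the number of mice behind each sample are not given in the sources used here, so p-values measure only the spread between these samples, and age and disease state cannot be told apart.

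Histones H2A, H2B, H3 and H4 form the nucleosome core around which DNA is wound, and H1 binds the linker DNA between nucleosomes. A cell must double its histones each time it copies its genome, and the clustered genes supply most of this protein during S phase. Their mRNAs, unlike other mRNAs of animal cells, normally carry no poly(A) tail. They end shortly after a conserved stem-loop that is bound by the protein Slbp, and they are degraded when DNA synthesis stops. Some clustered genes can also be read past the stem-loop to a downstream poly(A) signal, giving a polyadenylated transcript that is made outside S phase as well. The libraries were made with a kit for mRNA, so each value is the amount of a transcript that such a library captured. A difference in the amount of transcript and a difference in the share of it that was polyadenylated cannot be told apart here, and in sorted bulk samples fewer cells of a type and less RNA per cell cannot be told apart either.

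The stem-loop is shown first because it decides how these mRNAs normally end. A stem-loop of 16 bases was found downstream of the stop codon in the GENCODE transcripts (release vM21, GRCm38) of 44 of the 67 genes. It began 21 to 58 bases after the stop codon (median 31). In several other genes, such as Hist2h2bb and Hist1h1b, the annotated transcript ends at the stop codon, so a stem-loop could not be found there. The most frequent version, present in 26 genes of the H1, H2A, H2B and H3 classes, differed from the versions of the H4 genes in the stem. The 6 sequences that follow are 28 bases long, with the stem-loop in capitals, and belong to the 4 genes with the highest levels, to the H4 gene that was lower in leukemic samples and to the H3 gene with the highest level.
Hist3h2a: ccaaaGGCTCTTTTCAGAGCCacccaca
Hist1h1c: caaaaGGCTCTTTTCAGAGCCaccactc
Hist3h2ba: ccaaaGGCTCTTTTCAGAGCCaccttcc
Hist1h4i: ttaaaGGCCCTTTTTAGGGCCaccacaa
Hist1h4d: ccaaaGGCCCTTTTCAGGGCCactacct
Hist1h3c: aaaaaGGCTCTTTTAAGAGCCacctaag
The sequences of Hist3h2a, Hist1h1c and Hist3h2ba share 1 version of the stem-loop, Hist1h4d holds a version found in 7 H4 genes, Hist1h4i one found in 2 H4 genes, and Hist1h3c one found in 6 genes.

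The annotated transcripts of 22 genes ran at least 100 bases past the stem-loop, and those of 22 others ended within 100 bases of it. Of the 22 that ran past it, 11 held a poly(A) signal hexamer (AATAAA or ATTAAA) in their last 50 bases. All of the 4 genes with the highest levels were among these 11. The annotated transcript of Hist3h2a ran 1643 bases past its stem-loop, that of Hist1h1c 840 bases, that of Hist1h4i 330 bases and that of Hist3h2ba 169 bases. The median of the mean FPKM was 2.33 over the 11 genes whose transcript ran past the stem-loop to a hexamer. It was 1.18 over the 11 that ran past it without a hexamer and 0.579 over the 22 whose transcript ended near it. Over the 19 genes with neither a stem-loop nor a hexamer in the annotated transcript it was 0.970, and over the 3 with only a hexamer 0.905. The 22 include Hist1h2ao, Hist1h2ap, Hist1h4m, Hist1h4n, Hist2h2aa1 and Hist2h2aa2, near-identical copies that share a listed locus. Their means of 0.01 to 0.060 FPKM do not show that they are silent, and they lower the median of the 22. Hist2h3c1 and Hist2h3c2, another such pair at 0.01 FPKM, lay in the groups that ran past the stem-loop. Of the 66 genes with an annotated protein-coding transcript, 16 held a hexamer near its end, and 5 of these 16 were among the 10 genes with the highest levels. The other 11 of the 16 had a median of 0.905 FPKM, beside 0.987 FPKM over the 50 genes with no hexamer. The locus that the deposited table gives for Hist3h2a spans 508 bases, where its GENCODE transcript holds 2146, so fragments from that tail may not be in its value. The same holds for Hist1h1c (725 and 1560 bases), Hist1h4i (403 and 727) and Hist3h2ba (462 and 614). Annotated ends are themselves built from sequenced RNA, so they are no independent measure of levels.

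Depth was read from the table itself, since its low values move in steps of 1 fragment. The estimated depth was 15144844 to 16109844 fragments in the leukemic and 13637969 to 14755938 fragments in the preleukemic samples. Fragments were recovered for 55 of the 67 histone genes, and 236 of the 243 histone values under 10 fragments lay within 0.05 of a whole number (97.1%). In all, 604 to 769 fragments per sample came from these genes, or 39.9 to 49.9 in every 1000000. Of the 55 genes, 33 had fewer than 10 fragments in every sample and 3 had more than 20 in every sample. The summed FPKM of red cell precursor markers was 5968 to 27207 in leukemic and 465 to 2975 in preleukemic samples, and preleukemic sample 1 held the highest preleukemic value. B-cell precursor markers, all 16 of which were detected and passed the filter, summed to 3468 to 5180 FPKM in leukemic and 5822 to 7503 FPKM in preleukemic samples.

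Most clustered histone genes were detected at low levels. Of the 67 genes, 57 were above the table's floor of 0.01 FPKM (fragments normalized for the length of the transcript and for sequencing depth) in at least 1 sample, 37 in all 7 samples, and 10 were listed at the floor throughout. The median of the genes' mean FPKM was 0.995, 5 genes had a mean over 5 FPKM and 1 had a mean over 10 FPKM. In FPKM, which scales for length, Hist3h2a stood first, at the level below which 60.4% of all tested genes lay, and Hist1h1c second, with 30.9% of tested genes below it. Hist1h3e, the lowest histone gene tested, had 0.294% of tested genes below it. Hist3h2a alone made up 16.1% to 23.9% of the histone sum of a sample, and the 7 highest genes together 40.8% to 59.7%.

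**Figure D1:**
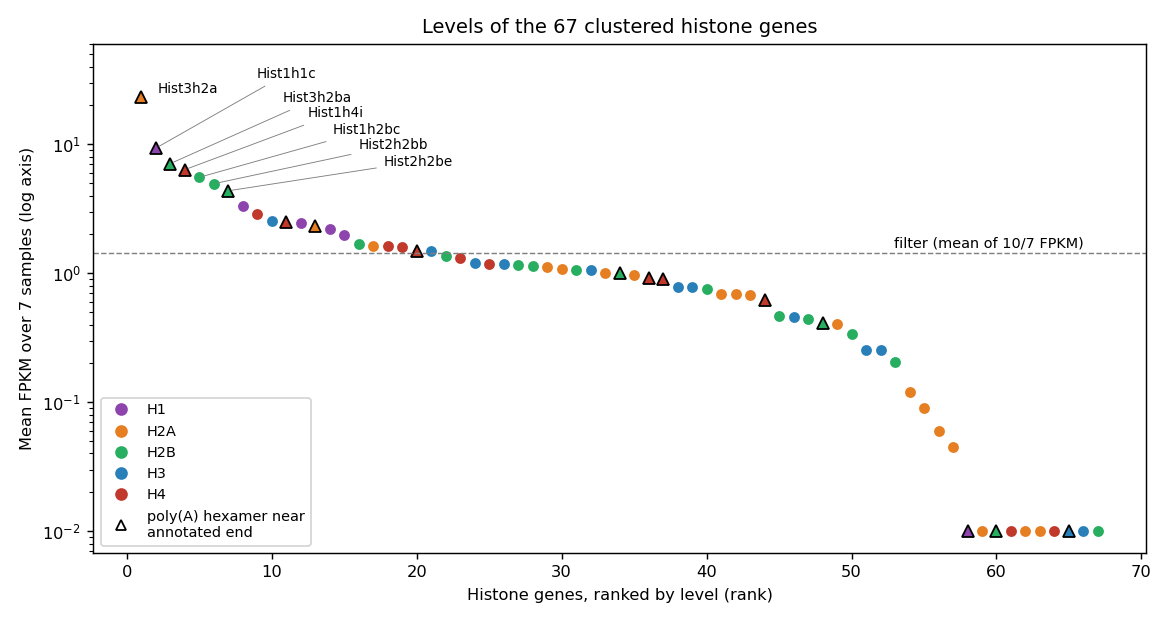
Mean FPKM over 7 samples (vertical, log axis) of the 67 clustered histone genes in order of level (horizontal, rank), with color for the histone class and triangles for genes whose annotated transcript has a poly(A) hexamer in its last 50 bases. The 4 highest genes are triangles, 21 genes lie above the dashed line of the filter, and 10 genes lie at the floor of 0.01.

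The 10 genes at the floor were of mixed kinds. Hist1h1t, the linker histone of the testis, and Hist1h2aa, a testis H2A, were listed at 0.01 FPKM in all 7 samples. Hist1h2ba, the testis H2B that pairs with it, had 0.538 FPKM in leukemic sample 1, 0.517 in leukemic sample 3 and 0.327 in preleukemic sample 3, and was at the floor in the other 4 samples, with 5 fragments in all. Hist3h2bb-ps, a pseudogene beside Hist3h2a, was also at the floor. Among the rest, Hist2h2aa1 and Hist2h2aa2, Hist2h3c1 and Hist2h3c2, and Hist1h4m and Hist1h4n are pairs of near-identical copies that share a listed locus with each other, so a value at the floor does not show that the pair is silent. Hist1h2bq, an H2B gene with a partner of its own in the cluster, completed the 10. Hist1h2ao and Hist1h2ap form another such pair and were each above the floor in 1 sample.

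The summed FPKM of the 67 genes was 98.5, 133 and 105 in leukemic samples 1, 2 and 3 and 106, 112, 133 and 130.4 in preleukemic samples 1, 2, 3 and 4. The groups overlapped, with a leukemic mean of 112 ± 18.4 (SD, n = 3) and a preleukemic mean of 120.2 ± 13.5 (SD, n = 4). By class, the H1 sum was 17.1 ± 3.59 FPKM in leukemic and 20.9 ± 3.98 FPKM in preleukemic samples. The H2A sum was 30.3 ± 3.47 and 37.3 ± 8.58 FPKM, the H2B sum 32.5 ± 6.45 and 31.6 ± 3.23 FPKM, the H3 sum 8.75 ± 2.55 and 10.9 ± 1.84 FPKM, and the H4 sum 23.8 ± 5.31 and 19.6 ± 1.13 FPKM, leukemic first in each. Each of these class means differed between the groups by less than the larger of the 2 SDs. No test was made of the sums.

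Single genes were compared between the groups with limma on log2(FPKM + 1) over 10541 genes, those with a total of at least 10 FPKM in the 7 samples together, and a gene was called at an adjusted p under 0.05. Of the histone genes, 21 passed this filter (5 H1, 3 H2A, 5 H2B, 2 H3 and 6 H4), and 46 were not tested (1 H1, 15 H2A, 13 H2B, 10 H3 and 7 H4). Of these 46, 36 were above the floor in at least 1 sample, with means from 0.0445 FPKM (Hist1h2ap) to 1.37 FPKM (Hist1h2bb). In leukemic samples 3 of the 21 were called lower (Hist1h4d, Hist1h1a and Hist1h1b) and 1 was called higher (Hist1h4i). Over all genes tested, 14.7% were called by limma, 8.47% as higher and 6.26% as lower, so the histone share of 19.0% (4 of 21) lay near the background. The log2 fold change was above 0 for 10 and below 0 for 11 of the 21 genes, for 6 and 15 with a common FPKM total, and for 7 and 14 with quantile normalization. Its median was −0.16, beside −0.02 over all genes tested and −0.05 over the 6334 genes tested with a mean FPKM in the range of the histone genes, of which 15.1% were called. The groups did not overlap in 5 of the 21 histone genes, 2 higher and 3 lower, while 32% of all genes tested did not overlap. Scaling every sample to the same FPKM total moved the median over all genes to −0.18 and that of the histone genes to −0.32, and the same 4 histone genes were called. Of all calls, 57.5% were higher in leukemic samples with the FPKM as deposited, 23.5% with the common total and 45.4% with quantile normalization, under which Hist1h4i was no longer called (limma adjusted p = 0.0553).

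**Figure D2:**
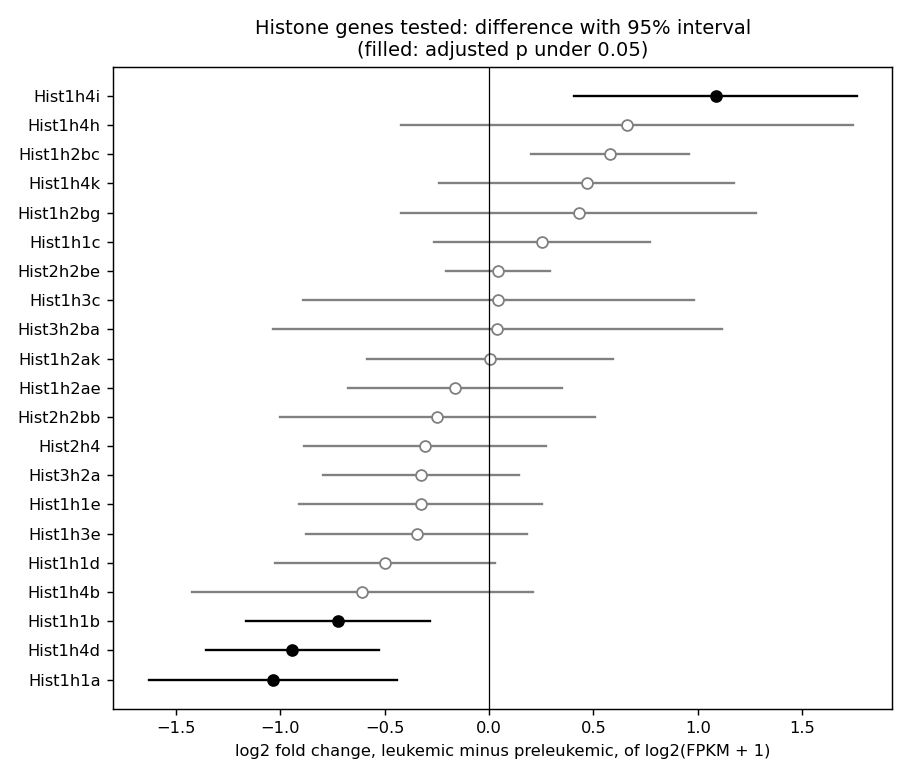
Log2 fold change of log2(FPKM + 1), leukemic minus preleukemic (horizontal), of the 21 histone genes tested, with the 95% interval from limma as a line. Filled points are the 4 genes with an adjusted p under 0.05. Hist1h4i lies above 0, Hist1h1b, Hist1h4d and Hist1h1a lie below 0, and the interval of every other gene except Hist1h2bc includes 0.

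Among the linker histone genes, 2 of the 5 tested fell in leukemic samples, and 4 of the 5 had a log2 fold change below 0. Over all 10541 genes tested, 6.26% were called lower and 5496 were below 0, and Hist1h1b, 1 of the 2, was called in 0 of the 7 fits that left out a sample. Hist1h1a (H1f1 in RefSeq, chromosome 13, 23763668 to 23764412, plus strand) encodes the H1.1 variant. Its level was 1.18, 0.941 and 0.449 FPKM in leukemic samples 1, 2 and 3, and 1.99, 2.14, 3.78 and 3.39 FPKM in preleukemic samples 1 to 4. Every leukemic sample was below every preleukemic sample. The mean was 0.856 ± 0.372 FPKM (SD, n = 3) against 2.82 ± 0.896 FPKM (SD, n = 4), a log2 fold change of −1.03 ± 0.25 (SE), with limma adjusted p = 0.0378. Behind these values stood 10, 8 and 4 fragments in the leukemic and 16, 17, 28 and 25 fragments in the preleukemic samples.

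Hist1h1b (H1f5 in RefSeq, chromosome 13, 21779832 to 21780625, minus strand), which encodes the H1.5 variant, had 1.08, 1.51 and 1.34 FPKM in leukemic samples 1 to 3. In preleukemic samples 1 to 4 it had 2.62, 2.19, 3.71 and 2.86 FPKM. The groups did not overlap here either, and the log2 fold change was −0.72 ± 0.19 (SE), with limma adjusted p = 0.0438. The fragments were 10, 14 and 13 in leukemic and 23, 19, 30 and 23 in preleukemic samples. Pooled over each group, this is 0.793 in 1000000 fragments (exact 95% Poisson interval 0.558 to 1.09) in leukemic and 1.67 in 1000000 (1.35 to 2.04) in preleukemic samples, where the intervals cover counting error only. The annotated transcripts of Hist1h1a and Hist1h1b held no stem-loop, and that of Hist1h1b ends at the stop codon and that of Hist1h1a 48 bases after it. Their sequences are distinct among the histone genes, with no run of bases longer than 32 (Hist1h1a) or 47 (Hist1h1b) shared with another of them.

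The other linker histone genes were not called. Hist1h1c, the H1.2 gene and the second highest of all clustered histone genes, had 8.07, 12.7 and 10.3 FPKM in leukemic and 5.67, 8.24, 10.4 and 9.99 FPKM in preleukemic samples, and the groups overlapped. Its log2 fold change was 0.26 (95% interval −0.26 to 0.77, limma adjusted p = 0.437). Hist1h1e, the H1.4 gene, had 2.87, 3.31 and 2.0004 FPKM in leukemic and 4.77, 2.12, 4.42 and 3.68 FPKM in preleukemic samples, with a log2 fold change of −0.33 (limma adjusted p = 0.378). Hist1h1d, the H1.3 gene, had a log2 fold change of −0.50 (95% interval −1.02 to 0.03, limma adjusted p = 0.164). The interval of Hist1h1c does not reach the fold change of Hist1h1a, but the difference between the 2 genes was not tested.

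Of the H2A genes, 3 were tested and none was called by limma at an adjusted p under 0.05, nor did any reach an unadjusted p under 0.05. Hist3h2a (H2aw in RefSeq, chromosome 11, 58954685 to 58955192, plus strand) lies apart from the large cluster on chromosome 13. It had 19.3, 21.5 and 19.3 FPKM in leukemic samples and 17.1, 25.2, 30.5 and 31.1 FPKM in preleukemic samples, of which preleukemic sample 1 lay below all leukemic samples. The mean was 20.03 ± 1.28 FPKM (SD, n = 3) against 26.0 ± 6.49 FPKM (SD, n = 4), with a log2 fold change of −0.32 (95% interval −0.79 to 0.14, limma adjusted p = 0.285). Without preleukemic sample 1 the log2 fold change was −0.50 and the limma adjusted p 0.0463, and that sample was the one with the highest red cell marker sum of its group. The part of these markers in the result was not tested. With 78 to 129 fragments per sample it was among the best measured histone genes. Hist1h2ae had 2.66, 1.78 and 1.87 FPKM in leukemic and 1.51, 2.68, 2.92 and 2.90 FPKM in preleukemic samples (log2 fold change −0.16, limma adjusted p = 0.624). Hist1h2ak had a log2 fold change of 0.00 (95% interval −0.59 to 0.59, limma adjusted p = 0.993).

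The H2B genes held the best measured gene of all. Hist2h2be (H2bc21 in RefSeq, chromosome 3, 96221121 to 96223738, plus strand) encodes an H2B variant that is known from olfactory neurons, which do not divide. Its deposited gene model spans 2618 bases, where the median over the 67 genes was 487, and it was covered by 143 to 176 fragments per sample. Its level was 4.78, 4.56 and 4.04 FPKM in leukemic and 4.12, 4.34, 4.27 and 4.40 FPKM in preleukemic samples. The values overlapped within a narrow range, and the log2 fold change was 0.05 (95% interval −0.20 to 0.29, limma adjusted p = 0.788).

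Hist1h2bc, an H2B gene with an annotated second exon downstream, had 6.81, 7.04 and 7.19 FPKM in leukemic and 4.02, 3.70, 3.91 and 6.13 FPKM in preleukemic samples. Every leukemic sample was above every preleukemic sample, and preleukemic sample 4 lay nearer to the leukemic than to the other preleukemic samples. The log2 fold change of 0.58 ± 0.16 (SE) did not pass the threshold (limma adjusted p = 0.0528), and did so without preleukemic sample 4 (log2 fold change 0.72, limma adjusted p = 0.0481). A run of 305 bases of its transcript is shared with Hist1h2bg, so fragments of the 2 genes may be split between them.

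Hist3h2ba, an H2B gene next to Hist3h2a, varied within both groups. Its level was 3.60, 6.54 and 11.3 FPKM in leukemic and 3.60, 3.93, 11.5 and 9.09 FPKM in preleukemic samples. Both groups held low and high samples (log2 fold change 0.04, 95% interval −1.04 to 1.12, limma adjusted p = 0.957). Hist2h2bb had 2.37, 6.95 and 4.13 FPKM in leukemic and 5.98, 7.26, 3.59 and 4.31 FPKM in preleukemic samples, which also overlapped (log2 fold change −0.25, limma adjusted p = 0.612). Hist1h2bg was not called either (log2 fold change 0.43, limma adjusted p = 0.427).

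Of the H3 genes 2 of 12 passed the filter, and neither was called nor had an unadjusted p under 0.05 by limma. Hist1h3c had 1.80, 4.09 and 1.73 FPKM in leukemic and 2.41, 1.72, 1.08 and 5.05 FPKM in preleukemic samples. One sample of each group stood above the rest, and the log2 fold change was 0.04 (limma adjusted p = 0.946). Hist1h3e had 1.16, 1.65 and 0.671 FPKM in leukemic and 1.496, 2.03, 1.398 and 1.93 FPKM in preleukemic samples (log2 fold change −0.35, limma adjusted p = 0.310). Both encode H3 of the replication-dependent kind, and their coding sequences were 97.6% identical over 411 bases.

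Of the 6 H4 genes tested, 1 was called lower and 1 higher, where 6.26% of all genes tested were called lower and 8.47% higher. The H4 genes encode almost 1 and the same small protein from different mRNAs. Hist1h4d (H4c4 in RefSeq, chromosome 13, 23581602 to 23581969, plus strand) had 1.09, 1.85 and 1.75 FPKM in leukemic and 4.35, 4.05, 4.11 and 3.10 FPKM in preleukemic samples. All leukemic values were below all preleukemic ones, with 1.56 ± 0.416 FPKM (SD, n = 3) against 3.90 ± 0.550 FPKM (SD, n = 4). The log2 fold change was −0.94 ± 0.18 (SE), with limma adjusted p = 0.0191, the smallest adjusted p of the 21 genes. It rested on few fragments, 3, 5 and 5 in leukemic and 11, 10, 9 and 7 in preleukemic samples. Pooled by group, this is 0.279 in 1000000 (exact 95% Poisson interval 0.148 to 0.476) against 0.651 in 1000000 (0.458 to 0.897), and these intervals of counting error overlap.

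Hist1h4i (H4c9 in RefSeq, chromosome 13, 22040960 to 22041362, minus strand) had 13.1, 8.68 and 6.76 FPKM in leukemic and 2.64, 4.04, 3.01 and 6.24 FPKM in preleukemic samples. All leukemic values were above all preleukemic ones, though leukemic sample 3 and preleukemic sample 4 lay close together. The mean was 9.51 ± 3.26 FPKM (SD, n = 3) against 3.98 ± 1.62 FPKM (SD, n = 4), with a log2 fold change of 1.09 ± 0.29 (SE), with limma adjusted p = 0.0466. The fragments were 43, 28 and 23 in leukemic and 8, 12, 8 and 17 in preleukemic samples, or 2.01 in 1000000 (exact 95% Poisson interval 1.63 to 2.46) against 0.792 in 1000000 (0.577 to 1.06). The coding sequences of Hist1h4i and Hist1h4d were 92.3% identical, with 24 differences in 312 bases, and the longest run that Hist1h4d shared with any clustered histone gene was 95 bases. Hist1h4i shared a run of 161 bases with Hist1h4j, and 77.6% of its 75-base windows occurred in no other histone gene.

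The other H4 genes tested, Hist1h4b, Hist1h4h, Hist1h4k and Hist2h4, had log2 fold changes of −0.61, 0.66, 0.47 and −0.31, and none was called (limma adjusted p of 0.255, 0.340, 0.305 and 0.405). The 4 calls among the histone genes were not stable when a sample was left out. When each of the 7 samples was left out in turn, Hist1h4d stayed under the threshold in 4 of 7 fits, Hist1h1a in 2, Hist1h4i in 1 and Hist1h1b in 0, and the direction of each stayed the same in all 7. Without preleukemic sample 4, calls over all genes fell from 1553 to 149, and none of the 4 was called. Their log2 fold changes in that fit were −1.02 for Hist1h4d, 1.28 for Hist1h4i, −0.96 for Hist1h1a and −0.72 for Hist1h1b. The first 2 were larger in size than with all samples, so a lost call does not by itself show a smaller difference. The limma adjusted p over these fits was 0.0233 to 0.0653 for Hist1h4d, 0.0371 to 0.114 for Hist1h1a, 0.0505 to 0.120 for Hist1h1b and 0.0476 to 0.119 for Hist1h4i.

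**Figure D3:**
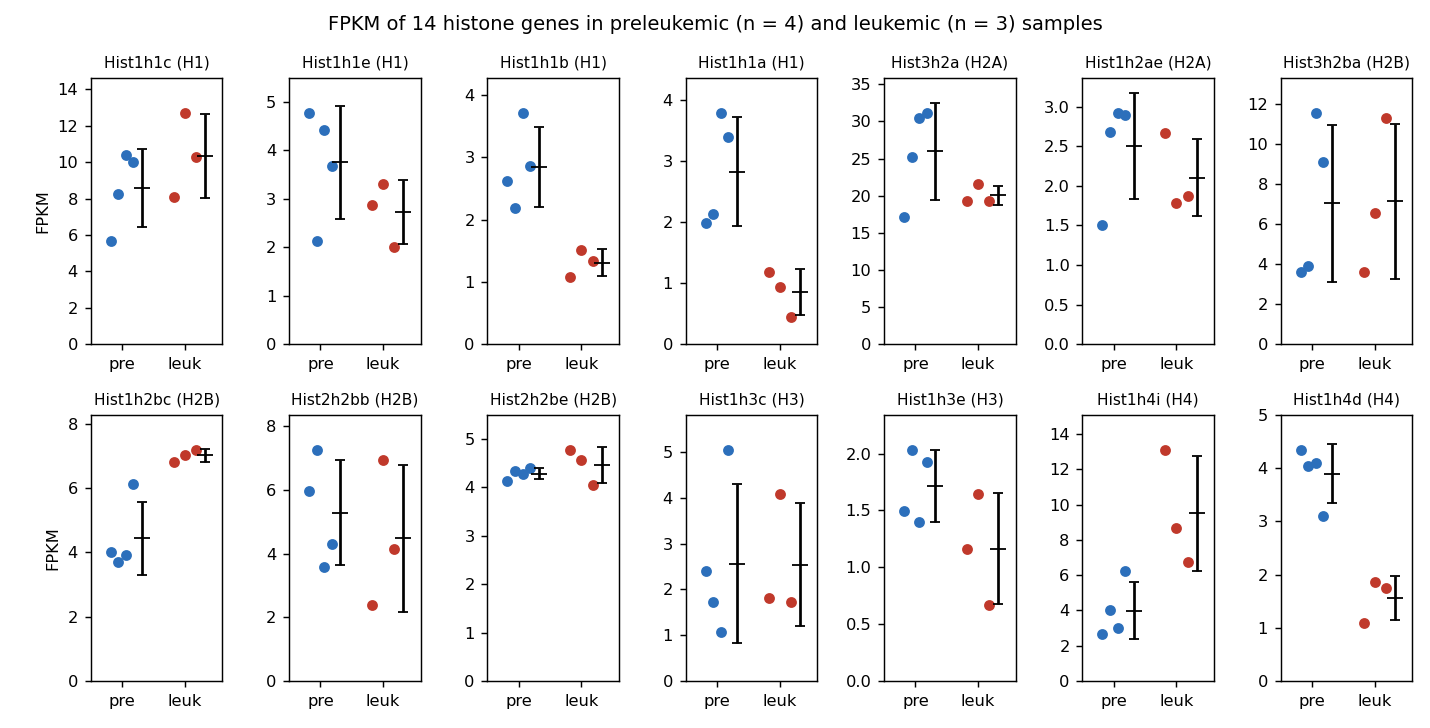
FPKM (vertical, axes from 0 and different for each gene) of 14 histone genes in 4 preleukemic (blue) and 3 leukemic (red) samples, with the mean and SD of each group in black. Hist1h1a, Hist1h1b and Hist1h4d show no overlap with leukemic samples lower, Hist1h4i and Hist1h2bc show none with leukemic samples higher, and the other 9 genes overlap.

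**Figure D4:**
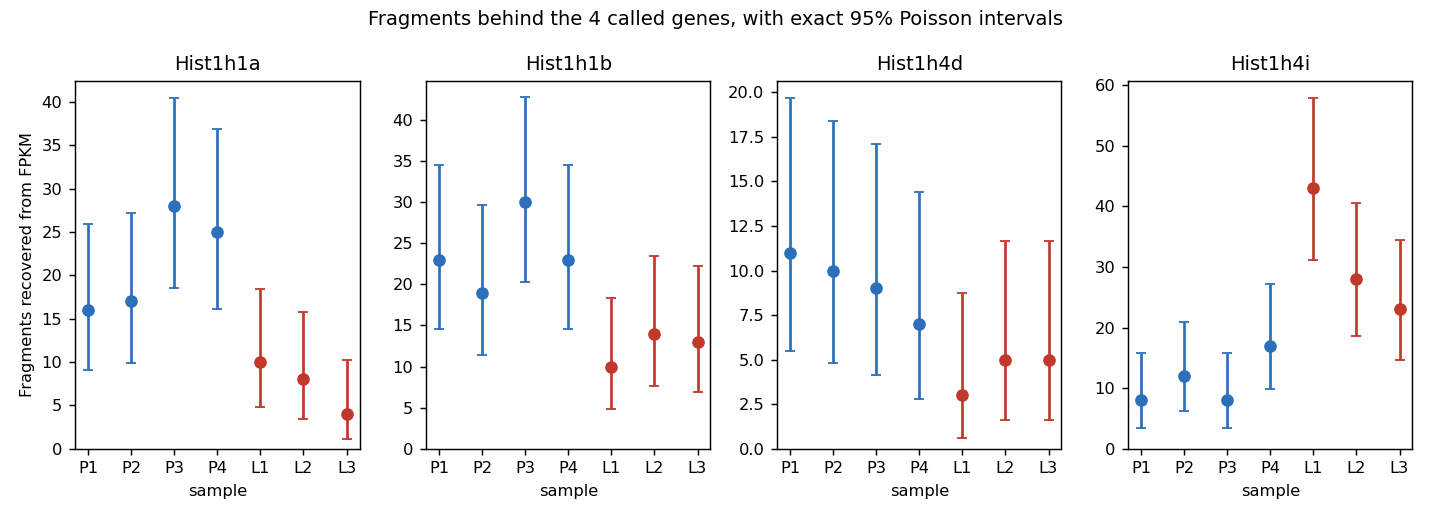
Fragments recovered from the FPKM values (vertical, from 0) of the 4 called genes in preleukemic samples P1 to P4 (blue) and leukemic samples L1 to L3 (red), with exact 95% Poisson intervals as bars. Hist1h4d rests on 3 to 11 fragments per sample, and Hist1h4i on 8 to 43.

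The spread between samples of a group was compared with that of counting alone, for the 25 histone genes with at least 35 fragments in all. An index of 1 means that samples of a group differed as much as fragment counts of these sizes would. The median index was 1.58, with a range from 0.208 to 7.91, and 9 genes were above 2. Hist3h2ba had the highest index, followed by Hist3h2a (3.97), Hist1h3c (3.96), Hist1h1c (3.86) and Hist2h2bb (3.51). Hist2h2be, with 1092 fragments in all, had an index of 0.569. Of the called genes, Hist1h4d (0.231) and Hist1h1b (0.773) had an index below 1, and Hist1h1a (1.82) and Hist1h4i (2.75) one above it.

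The genes on chromosome 13 lay in 2 groups separated by other genes. The first held 22 histone genes from 21715713 to 22043658, of which 4 were tested, with a median log2 fold change of 0.24. The second held 31 genes from 23531044 to 23934913, of which 12 were tested, with a median of −0.24. Hist1h4i and Hist1h1b, called in opposite directions, both lay in the first group. The 385 other genes tested on chromosome 13 had a median log2 fold change of −0.07, with 20 called higher and 23 called lower.

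Many H2A and H2B genes stand head to head and share the stretch between their starts. There were 12 such pairs, with 167 to 305 bases between the genes (median 224.5). Levels within a pair could differ widely, as Hist1h2bc had a mean of 5.54 FPKM and its partner Hist1h2ac 0.400 FPKM. Hist2h2be had 4.36 FPKM and its partner Hist2h2ac 1.003 FPKM. Hist1h2ae and Hist1h2bg were closer, at 2.33 and 1.70 FPKM.

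The promoters of the called genes are given because these genes moved in opposite directions while lying in 1 cluster. Promoters of 300 bases (250 before to 50 after the annotated start) were taken from RefSeq (GRCm38.p6) for 60 of the 67 genes and searched on both strands for the TATA box (the letters TATAAA), the CCAAT box and the octamer ATTTGCAT. Capitals mark these motifs or their reverse complements.
Hist1h1a, chr13:23763418-23763717 (plus strand): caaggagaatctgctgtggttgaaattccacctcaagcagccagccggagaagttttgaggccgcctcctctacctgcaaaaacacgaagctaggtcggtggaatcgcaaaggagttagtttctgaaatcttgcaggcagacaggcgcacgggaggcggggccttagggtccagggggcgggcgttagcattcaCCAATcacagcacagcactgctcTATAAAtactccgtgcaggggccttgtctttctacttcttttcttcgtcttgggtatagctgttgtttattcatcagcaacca
Hist1h1b, chr13:21780576-21780875 (minus strand): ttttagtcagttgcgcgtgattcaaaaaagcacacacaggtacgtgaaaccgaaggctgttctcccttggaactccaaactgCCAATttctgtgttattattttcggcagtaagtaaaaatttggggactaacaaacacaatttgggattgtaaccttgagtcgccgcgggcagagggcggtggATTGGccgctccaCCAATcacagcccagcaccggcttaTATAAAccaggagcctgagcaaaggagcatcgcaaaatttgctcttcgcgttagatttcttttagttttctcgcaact
Hist1h4d, chr13:23581318-23581617 (plus strand): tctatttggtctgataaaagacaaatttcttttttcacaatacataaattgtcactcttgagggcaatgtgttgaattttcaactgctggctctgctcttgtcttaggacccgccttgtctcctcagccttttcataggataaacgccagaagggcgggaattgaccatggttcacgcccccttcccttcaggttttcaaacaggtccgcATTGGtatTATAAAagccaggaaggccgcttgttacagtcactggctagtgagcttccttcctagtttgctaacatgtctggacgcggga
Hist1h4i, chr13:22041313-22041612 (minus strand): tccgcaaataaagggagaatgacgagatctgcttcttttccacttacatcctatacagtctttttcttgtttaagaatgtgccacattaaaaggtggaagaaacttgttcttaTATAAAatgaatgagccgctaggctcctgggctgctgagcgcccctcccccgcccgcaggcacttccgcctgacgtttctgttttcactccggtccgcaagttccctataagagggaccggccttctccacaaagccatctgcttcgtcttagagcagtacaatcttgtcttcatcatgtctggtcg
In Hist1h1a the CCAAT box began 56 bases and the TATA box 33 bases before the annotated start. Hist1h1b held 3 CCAAT boxes and a TATA box 28 bases before the start. In Hist1h4d a TATA box began 32 bases before the start and a CCAAT box on the opposite strand 40 bases before it. Hist1h4i held the letters TATAAA 137 bases before the start and not nearer to it, and no CCAAT box in this window. The similar letters TATAAG, which were not searched for, stand nearer to its start, so a TATA box there is not excluded.

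Motifs were counted per gene, and a gene with several promoters counted if any of them held the motif. The comparison covered 27025 genes, and a chromosome with no clustered histone gene was left out of it. Of the 60 histone genes, 58.3% held TATAAA, where 15.7% of the 27025 genes did. CCAAT was present in 85.0%, where 41.1% of the 27025 genes held it. All H1, H2A, H2B and H3 promoters held CCAAT, and 3 of 12 H4 promoters did. The octamer stood in 7 of 17 H2A and 7 of 15 H2B promoters, in none of the H1, H3 and H4 promoters, and in 1.97% of the 27025 genes. The H2A and H2B promoters of a head-to-head pair overlap, so a motif between them can be counted for both genes. A match describes these letters in this window and is not a measured binding site.

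Genes that act on histone mRNA or protein were compared in the same fit. The histone mRNA processing list holds Slbp, the U7 snRNP proteins Lsm10 and Lsm11, the transcription coactivator Npat and the cleavage factors. Of its 23 genes 22 were tested, and none was called by limma in either direction, while 6 had an unadjusted p under 0.05. The median log2 fold change was 0.11, and −0.05 with a common FPKM total. Slbp, the stem-loop binding protein, had 111, 101 and 83.9 FPKM in leukemic and 88.7, 53.5, 76.3 and 74.1 FPKM in preleukemic samples, which overlapped (log2 fold change 0.44, limma adjusted p = 0.131). Npat had 11.6 ± 2.49 FPKM (SD, n = 3) against 9.76 ± 0.954 FPKM (SD, n = 4). Lsm11 had 3.52 ± 0.705 against 2.97 ± 0.315 FPKM, and neither was called (limma adjusted p of 0.323 and 0.444).

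Histones outside the clusters, most of whose mRNAs are polyadenylated and not limited to S phase, were represented by 16 genes. Of these 10 were tested and, where 14.7% of all genes tested were called, 1 was called. This was H1f0, the linker histone of slowly dividing and differentiating cells. It had 61.7, 63.0 and 44.3 FPKM in leukemic and 118, 74.7, 122 and 140.3 FPKM in preleukemic samples, without overlap (log2 fold change −0.98 ± 0.23 SE, limma adjusted p = 0.0321). Its summed list was 1591 to 2365 FPKM in leukemic and 1569 to 1899 FPKM in preleukemic samples, more than 10 times the clustered histone sum in every sample. Of the histone chaperones, which carry histones to DNA, 25 of 26 were tested and 1 rose, where 8.47% of all genes tested were called higher. This was Npm1 (nucleophosmin), with 809 ± 97.0 FPKM (SD, n = 3) against 612 ± 57.5 FPKM (SD, n = 4), a log2 fold change of 0.40 (limma adjusted p = 0.0493).

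Genes of DNA replication and its control, which like the clustered histones are used in S phase, were compared in the same fit. All 34 were tested, 33 had a log2 fold change above 0 (31 with a common FPKM total) and 3 were called higher, with a median of 0.51 (0.36 with a common FPKM total) beside −0.16 for the 21 clustered histone genes. Over all genes tested 8.47% were called higher, so 3 of 34 lay near the background, and 5045 of 10541 were above 0. The 3 were Cdt1 and Cdc6, which load the replicative helicase, and E2f1, which drives transcription at the start of S phase, with log2 fold changes of 0.95, 0.85 and 0.71 (limma adjusted p of 0.0412, 0.0374 and 0.0411). The difference between this list and the clustered histones was not tested.

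The capture of RNA without a poly(A) tail was followed with 25 other such RNAs, of which 18 were in the table and 4 passed the filter. Their summed FPKM was 14.1, 136 and 77.2 in leukemic and 18.8, 95.8, 7.29 and 14.8 in preleukemic samples. The samples differed by over 10 times within the preleukemic group, and none of the 4 genes was called by limma or had an unadjusted p under 0.05. Rmrp, the RNA of RNase MRP, ranged from 0.963 to 79.3 FPKM over the 7 samples (limma adjusted p = 0.280), and Rpph1, the RNA of RNase P, from 2.34 to 45.5 FPKM (limma adjusted p = 0.630). The histone sum in the samples where these RNAs were highest (leukemic sample 2 and preleukemic sample 2) was 133 and 112 FPKM. The part of such RNA in the histone values was not tested.

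Markers of other cells moved with the groups. Of the red cell precursor markers, all 21 tested were called higher in leukemic samples, as were 8 of 13 macrophage and 7 of 15 neutrophil markers. Over all genes tested 8.47% were called higher. None of 8 T and NK cell markers was called by limma, and 3 had an unadjusted p under 0.05. Macrophage markers summed to 175 to 412 FPKM in leukemic and 42.2 to 95.5 FPKM in preleukemic samples, and neutrophil markers to 1480 to 1853 and 155 to 905 FPKM. T and NK cell markers summed to 27.4 to 88.0 and 27.6 to 34.3 FPKM. Of the B-cell precursor markers, 1 of 16 was called lower (Ebf1, log2 fold change −0.70, limma adjusted p = 0.00952), 15 of 16 were below 0, and 11 had an unadjusted p under 0.05. Over all genes tested 6.26% were called lower, and 5496 of 10541 were below 0. The red cell globin Hbb-b1 reached 3293 to 17338 FPKM in leukemic samples and 129 to 1577 FPKM in preleukemic samples. Hbb-bs, another globin entry, was listed at the floor in all samples. Without leukemic sample 2, which had the highest red cell sum of all, 1 histone gene was called lower (Hist1h4d) and 0 higher. The log2 fold changes in that fit were −1.08 for Hist1h1a, −0.79 for Hist1h1b and 1.12 for Hist1h4i. Without preleukemic sample 1, which had the highest red cell sum of its group, 3 were called lower (Hist1h1a, Hist1h4d and Hist3h2a) and 0 higher, while the log2 fold change was −0.75 for Hist1h1b and 0.95 for Hist1h4i. Leukemic samples 1 and 3, which stayed in both fits, had red cell sums of 5968 and 13380 FPKM, where preleukemic samples had at most 2975 FPKM. Leaving out either sample therefore cannot separate red cell content from the groups. The part of these cells in the histone values was not tested.

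**Figure D5:**
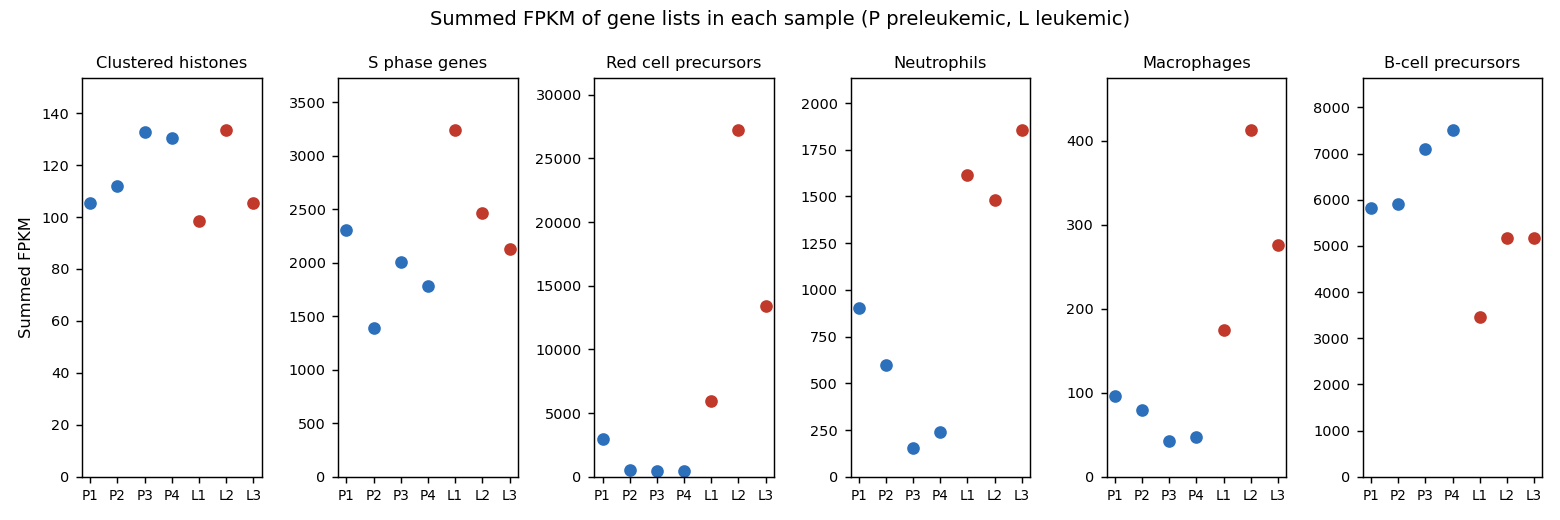
Summed FPKM (vertical, from 0, different axes) of the clustered histones, S phase genes, red cell precursor, neutrophil, macrophage and B-cell precursor markers in preleukemic samples P1 to P4 (blue) and leukemic samples L1 to L3 (red). The histone sums overlap between the groups, from 98.5 to 133 FPKM, while the red cell, neutrophil and macrophage sums are higher in all leukemic samples.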

How the data were processed

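RNA from sorted splenic BCP cells was sequenced after a stranded mRNA library kit. The authors deposited FPKM values, 1 per gene and sample, with a floor of 0.01. The submitters' processing notes name STAR 2.5.0b, bedtools 2.17.0, Cufflinks 2.2.1, Bowtie, DESeq2 and mm10; their roles and the annotation are not given in the sources used here. FPKM is scaled for depth and transcript length and is not a count, so the authors' count model was not used, but their filter (a sum of at least 10, taken here over FPKM) and threshold (0.05) were. The members, lists, test and alternatives were chosen with earlier results of these data known.

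Samples were grouped by their titles. Differences were tested on log2(FPKM + 1), a scale that understates changes of low genes, with limma 3.58.1 in R 4.3.3 (intensity trend, no covariate, all 7 samples), adjusted by Benjamini and Hochberg over 10541 genes and tested on simulated data. Fold changes are leukemic minus preleukemic. All tests were two-sided. Named are histone genes called, the 10 highest by mean FPKM and the 2 highest per class (14 in all), and per list at most 3 called genes, or 2 where none was called, besides Slbp, Npat and Lsm11; further histone genes are named to account for those tested or at the floor, and Hist1h2ai was chosen after its values were seen. Fragments were solved from the FPKM steps with each sample's fragment length and depth fitted on short genes with 1 transcript, and were not used in the tests. In those fits 46.2% to 91.7% of the 12 to 18 calibration values per sample were within 0.05 of a whole number. Intervals cover counting error only; 95% Poisson intervals are exact.

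Symbols of all 67 genes were matched to RefSeq through synonyms. Positions are those of the deposited table (starts raised by 1). Stem-loops were sought in GENCODE transcripts as 16 bases starting with GG whose first and last 6 bases pair, with TT right after the first 6. The TT at the start of each loop is therefore a condition of the search. Python 3.11.15, numpy 2.4.6, pandas 2.3.3, scipy 1.17.1 and matplotlib 3.10.9 were used. Alternatives were quantile normalization, a common FPKM total, pseudocounts of 0.1 and 5, no filter, a filter of 70, the replicate number as a block, no intensity trend, and leaving out each sample.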

Additional observations from a re-analysis of the deposited data

Results flagged for a closer look

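Of 20 groups of 4 preleukemic values examined, 2 held a sample whose gap to the nearest other one, divided by the range of the group, was above the critical value of Dixon's test for 4 samples at 95%. Chance gives about 1 in 20 such groups. Hist1h2bc, an H2B gene, had 6.13 FPKM in preleukemic sample 4, where the other preleukemic samples had 3.70 to 4.02 FPKM (gap over range 0.870). Hist1h2ae, an H2A gene, had 1.51 FPKM in preleukemic sample 1, where the others had 2.68 to 2.92 FPKM (gap over range 0.834). Without preleukemic sample 4 the limma adjusted p of Hist1h2bc was 0.0481. Fragments of Hist1h2ae were 8 in preleukemic sample 1 and 14 in each of the others.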

How the results depend on the processing

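With limma on all samples 1553 genes were called, with 1 histone gene higher and 3 lower. Genes called numbered 2917 with a common FPKM total and 951 with a filter of 70, which left only Hist3h2a of the histone genes (0 higher, 0 lower). The share of calls that were higher fell from 57.5% to 45.4% with quantile normalization and to 23.5% with a common FPKM total. No histone gene was called higher with quantile normalization, with no filter or with no intensity trend (0 each). Leaving out 1 sample gave 149 to 1620 genes, 0 to 1 histone gene higher and 0 to 3 lower. Genes called numbered 932, 443, 271 and 149 without preleukemic sample 1, 2, 3 and 4, and no histone gene was called lower without preleukemic sample 2, 3 or 4. With no filter Hist1h2ai was also called lower, among 57 histone genes tested, with 0.253, 0.767 and 0.01 FPKM in leukemic and 1.63, 2.21, 1.53 and 1.20 FPKM in preleukemic samples.

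The same replicate numbers stand in both groups, but same-numbered samples correlated at 0.03, 0.05 and −0.09 in their deviations from the group means, so the numbers do not pair the samples; the replicate block, in which preleukemic sample 4 has no partner and adds nothing, called 0 genes (0 histone genes higher, 0 lower; 5 histone genes had an unadjusted p under 0.05). Among the 21 histone genes tested, the sign of the log2 fold change turned for 5, none of them called: Hist3h2ba (common total −0.11, leaving out a sample −0.31 to 0.40), Hist2h2bb (leaving out a sample −0.56 to 0.060), Hist2h2be (quantile normalization −0.020, common total −0.099), Hist1h3c (quantile normalization −0.069, common total −0.072, leaving out a sample −0.25 to 0.34) and Hist1h2ak (0.004 as reported, −0.15 with quantile normalization, −0.12 with a common total, −0.0005 with a pseudocount of 5, and below 0 without leukemic sample 1 or 2 or preleukemic sample 1 or 3). For the 14 histone genes followed singly, direction and call stayed the same in 155 comparisons of a setting with the reported value. These include genes not called that stayed so. The call was lost in 28 comparisons, all of them of called genes, the direction turned in 12 and a call was gained in 2. The cause of the changes was not tested. Of the 55 genes with recovered fragments 33 had under 10 in every sample, and counting error limits the precision of these values.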
